A study of Oikopleura dioica with 14 samples.

Results

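The 5 libraries described here are pools of whole Oikopleura dioica animals homozygous for a mutation of Pax37b (Pax37b-/-), 3 collected at 6 hours post fertilization (hpf) and 2 at 4 hpf. They were selected by genotype and stage from the 14 libraries of the study and show how the transcriptome of the mutants moved between these stages. The remaining libraries are 3 mutant pools at 8 hpf and 6 wild-type (Pax37b+/+) pools, 2 at each stage. All animals were offspring of heterozygous (Pax37b+/-) parents, each was genotyped from a share of its lysate, and animals of the same genotype were then combined. Whole animals were used, so fewer cells of a type and less RNA per cell cannot be told apart. The labels call the pools biological replicates without saying that each came from its own cross, so p-values measure the spread between these pools. The sources used here name neither the lesion in the gene nor the number of animals in a pool.

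Oikopleura dioica is a planktonic tunicate that keeps its tail and lives inside a secreted house, which the epithelium of the trunk builds and which filters food from the water. The hours studied here cover the formation of organs and the patterning of that epithelium into territories, among them the Fol territory named in the series title, whose large cells secrete parts of the filter. Transcription factors of the Pax3/7 family, to which the Pax37b name refers, act in other chordates in the border of the neural plate, the dorsal nervous system and muscle precursors. The 17212 identifiers in the files carry no gene names, and 0 of them were found among 17178 reference genes (OKI2018_I68_1.0). Pax37b itself was therefore not examined, no function is given to any gene, and no sequence is shown.

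Depth differed between the stages. The 6 hpf mutant libraries held 14657018, 15465563 and 13038439 counts, and the 4 hpf mutant libraries held 3941906 and 2973349. Levels are given as CPM, each count divided by its library's total and scaled, which are not divided by transcript length, so that only values of the same gene are compared. Counts of genes were made after all 5 libraries had been thinned at random to 2973335 counts. Stage and depth cannot be told apart in the deposited counts, and the labels give no sequencing batch.

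The sharpest difference between the stages lay in how the counts were distributed over genes. At 6 hpf the 10 most abundant genes of each mutant library took 3.78%, 3.71% and 3.66% of the thinned counts, against 15.4% and 13.7% at 4 hpf. The 3 libraries of 6 hpf lay together and far below both libraries of 4 hpf. The 100 most abundant genes took 20.2%, 16.3% and 19.3% at 6 hpf and 37.8% and 35.7% at 4 hpf. Both shares gave p = 0.1 in a two-sided exact permutation test, the smallest value that 3 against 2 libraries allow. The curves of cumulative counts crossed further down the ranking, where the 6 hpf libraries also differed among themselves.

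**Figure D1:**
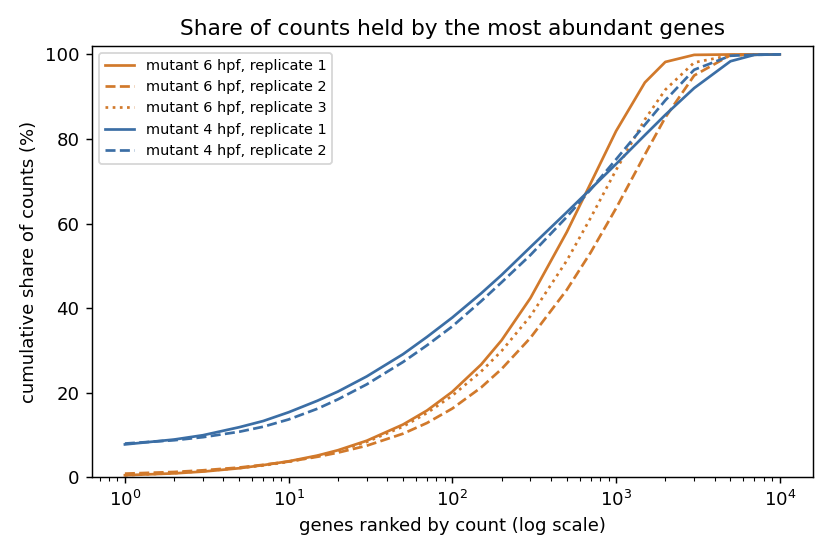
Cumulative share of counts (percent, vertical axis) against the rank of a gene by count (log scale) in the 5 mutant libraries after thinning to 2973335 counts, 6 hpf in orange and 4 hpf in blue, 1 line per library. The first gene alone holds 7.77% and 7.98% of the counts at 4 hpf, and the 10 first genes hold 3.66% to 3.78% at 6 hpf.

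The number of genes with RNA did not separate the stages. At equal depth 5717, 8032 and 9826 genes had a count at 6 hpf, against 9131 and 9616 at 4 hpf. Genes with at least 100 counts numbered 2181, 3620 and 2973 at 6 hpf, against 3859 and 3316 at 4 hpf. The ranges overlapped in both measures, with p = 0.5 and p = 0.4 in the two-sided exact permutation test. The first 6 hpf pool had the fewest genes in both. Without thinning, the order of the first measure turned round, with 10563, 12326 and 14353 genes with a count at 6 hpf and 9559 and 9616 at 4 hpf.

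Mutant pools shared fewer abundant genes with each other at 6 hpf than at 4 hpf. A gene is called on where it had at least 100 thinned counts, equal to 33.6 CPM. Of the genes on in either library of a pair, 24.0% to 31.1% were on in both for the 3 pairs of 6 hpf pools and 44.3% for the single pair of 4 hpf pools. Pairs made of a 6 hpf and a 4 hpf pool shared 23.3% to 33.4%, a range that covers that of the pairs within 6 hpf. Spearman's correlation of CPM across genes, a description over genes that are not independent replicates, was 0.30, 0.38 and 0.42 within 6 hpf and 0.49 within 4 hpf. It was 0.15 to 0.34 between the stages. These differences between pairs were not tested.

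A core of 472 genes was on in all 5 mutant libraries. These genes took 32.3%, 27.8% and 27.5% of all counts at 6 hpf and 41.0% and 39.8% at 4 hpf. In wild type, 262 of the 472 (55.5%) reached the same CPM level in all 4 libraries of 6 and 4 hpf, as did 573 of all 17212 identifiers (3.33%). At the same CPM level, 74 of the 472 (15.7%) were on in all 3 mutant pools of 8 hpf, as were 131 of all identifiers (0.761%). The third of these pools had fewer genes on, 3.58% of all identifiers against 8.55% and 11.2%, and without it 164 of the 472 (34.7%) were on in the other pools, against 2.95% of all identifiers.

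Outside the core, most genes that were on at 4 hpf were on in some of the 6 hpf pools and missing from others. Of 2204 genes on in both 4 hpf mutant libraries, 472 were on in all 3 libraries of 6 hpf, 576 in 2 of them, 652 in 1 and 504 in none. Those 504 genes held 0.0497%, 0.169% and 0.141% of the 6 hpf counts, against 9.03% and 10.6% of the 4 hpf counts. In the other direction, 733 genes were on in all 3 libraries of 6 hpf, and 117 of these were on in neither 4 hpf library. The 117 genes took 5.68%, 3.31% and 3.62% of the counts at 6 hpf against 0.0970% and 0.0514% at 4 hpf. A gene had to be on in 3 libraries for the second list and in 2 for the first, so the sizes of the lists are not comparable.

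The same step was examined in wild type, with all libraries thinned to 2803712 counts. Of the genes on in both 4 hpf libraries of a genotype, 38.8%, 57.1% and 50.2% were on in the mutant pools of 6 hpf and 33.6% and 46.0% in the wild-type pools. The ranges overlapped, and the mean difference of 8.90 percentage points gave p = 0.4 in a two-sided exact permutation test (n = 3 and 2). Of the genes on in a 6 hpf library, 37.4%, 39.4% and 38.6% in the mutant pools, against 27.9% and 35.3% in the wild-type pools, had been on in neither 4 hpf library of that genotype. The mutant pools lay above both wild-type pools in this share, by 6.83 percentage points on average. Fewer genes were on at 4 hpf in mutants, 3696 and 3259 against 3921 and 4003 in wild type, so more genes could count as new. The part this has in the difference was not tested. For this share the two-sided exact permutation test gave p = 0.1, the smallest value it can give, and 0.2 with adjustment over these 2 measures.

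The genes most abundant at 4 hpf gave way as a group. In both 4 hpf mutant libraries, 71 genes stood among the 100 most abundant. These genes held 4.85%, 6.32% and 6.80% of all counts at 6 hpf, against 32.1% and 30.8% at 4 hpf. Of the 71, 52, 63 and 57 were still on in the 3 libraries of 6 hpf, while 12, 18 and 22 were still among the 100 most abundant. As the genes were chosen for their 4 hpf level in the mutants, the wild-type libraries give the independent values, which were 7.18% and 4.26% of counts at 6 hpf and 25.7% and 25.9% at 4 hpf. The share was 5.38%, 4.41% and 2.44% in the mutant pools of 8 hpf. In all 3 mutant libraries of 6 hpf, 12 genes were among the 100 most abundant, and 6 of them belonged to the 71. As the 12 had to rank so in all 3 libraries and the 71 only in both of 4 hpf, the sizes are not comparable.

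**Figure D2:**
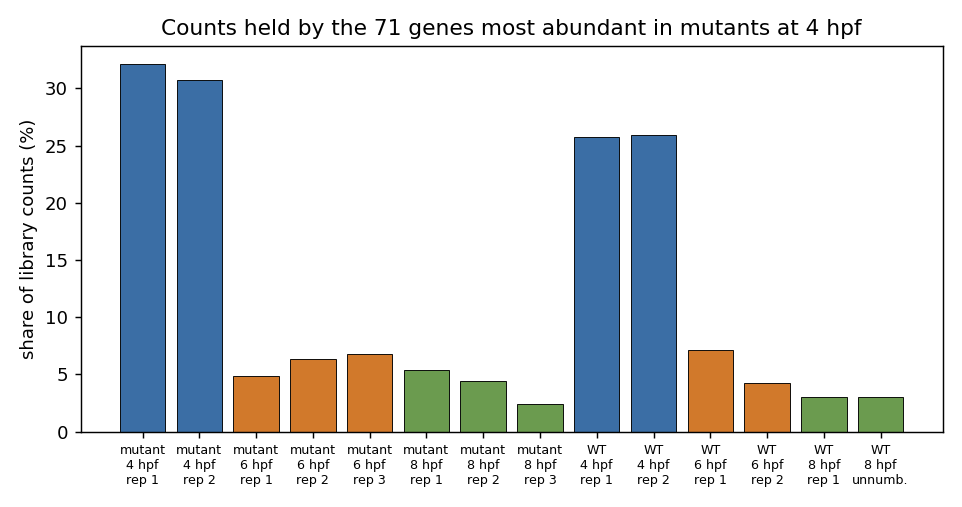
Share of library counts (percent, bars from 0) held by the 71 genes that stood among the 100 most abundant in both mutant libraries at 4 hpf, 1 bar per library, with 4 hpf in blue, 6 hpf in orange and 8 hpf in green. The bars reach 25.7% to 32.1% in the 4 libraries of 4 hpf and 2.44% to 7.18% in the 10 later libraries.

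The test of each gene between 6 and 4 hpf in mutants (edgeR's quasi-likelihood test on the unthinned counts, Benjamini-Hochberg adjustment) passed 7 of 7518 genes (0.0931%) at an adjusted p under 0.05, of which 3 rose (0.0399%) and 4 fell (0.0532%). An unadjusted p under 0.05 was reached by 470 genes in the rising and 752 in the falling direction. The spread between pools was wide, with a biological coefficient of variation of 1.79. A gene without a call is therefore not shown to be stable. The number of calls depended on scaling and tool, with 0 genes under RLE size factors and 17 under upper-quartile factors, 2 higher and 15 lower. limma-voom called 269 genes, 131 higher and 138 lower, and DESeq2 called 1657, 857 higher and 800 lower. On thinned counts edgeR called 18 genes, 1 higher and 17 lower, and with genes at a mean of 5 CPM or more 17, 12 higher and 5 lower. Without 6 hpf pool 2 or either 4 hpf pool edgeR called 2 genes, without 6 hpf pool 3 it called 1, and without 6 hpf pool 1 it called 8. The median log2 fold change of all tested genes was 1.19 under the TMM factors used here. It was 2.02 under RLE, 0.20 under upper-quartile factors and -0.74 with limma-voom. Log2 fold changes in the text below are given relative to the median of tested genes, unless they are called fitted.

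GSOIDG00009602001 was the most abundant gene of every 4 hpf library in either genotype and fell steeply. Its level was 2184, 2132 and 4714 CPM at 6 hpf, against 77657 and 79751 CPM at 4 hpf in mutants. The libraries of each stage lay close to each other and the stages were far apart. The means were 3010 ± 1475 CPM at 6 hpf (SD, n = 3) and 78704 ± 1481 CPM at 4 hpf (SD, n = 2), and the fitted log2 change was -3.67 with an SE of 0.29 (edgeR adjusted p = 1.782e-11). Relative to the median gene, a value that was not itself tested, it was -4.86. Leaving out any single mutant library kept the call, but it was lost under RLE factors (edgeR adjusted p = 0.54), in DESeq2 (adjusted p = 0.291), without the low-count filter (edgeR adjusted p = 0.294) and in a fit of all 14 libraries (edgeR adjusted p = 0.232). At 8 hpf the mutant pools had 0.623, 754 and 2.19 CPM. In wild type the gene stood at 61374 and 71031 CPM at 4 hpf, 2194 and 1031 CPM at 6 hpf, and 187 and 0.402 CPM at 8 hpf.

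GSOIDG00016100001 all but disappeared from the mutants between the stages. It had 0, 0 and 1 counts in the 6 hpf libraries, against 5781 and 9182 counts (1467 and 3088 CPM) in the shallower 4 hpf libraries. The ratio of pooled CPM at 4 hpf to that at 6 hpf was 93390, with a 95% exact binomial interval of 16759 to 3688970 that covers counting error only (edgeR adjusted p = 0.019). The call was kept without 6 hpf pool 1 and lost without each of the other 4 mutant libraries, with edgeR adjusted p of 0.29 to 0.696. Mutant pools at 8 hpf had 7, 6 and 5 counts. Wild-type libraries had 5 and 4 counts at 6 hpf, against 5238 and 2040 at 4 hpf. At 8 hpf they had 2345 and 2 counts, so the gene was present again in 1 of them.

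GSOIDG00010487001 was nearly absent at 4 hpf and uniformly present at 6 hpf in mutants. Its level was 1604, 1230 and 1035 CPM at 6 hpf, and it had 0 and 2 counts in the 4 hpf libraries. The ratio of pooled CPM, 6 over 4 hpf, was 4490 with a 95% exact binomial interval for counting error of 1243 to 37074 (edgeR adjusted p = 0.019). The call was lost when any of the 5 mutant libraries was left out, with edgeR adjusted p of 0.0844 to 0.696. The level was low again in the mutant pools of 8 hpf, at 1.48, 2.13 and 3.74 CPM. In wild type it was 1.90 and 147 CPM at 6 hpf, and both 4 hpf libraries had 0 counts. All 3 mutant pools of 6 hpf thus lay above both wild-type pools of that stage, a difference in level that was not tested here. The gene was chosen for its change in the mutant libraries, which favours a higher level in those of 6 hpf.

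GSOIDG00014358001 had no count in either 4 hpf mutant library and 4346, 1011 and 83.3 CPM in those of 6 hpf. The 6 hpf mean of 1813 ± 2241 CPM (SD, n = 3) was at least 4180-fold higher than the floor of 3 counts over both 4 hpf libraries, a limit that covers counting error only (edgeR adjusted p = 6.127e-05). Pool 1 carried much of that mean, and without it the limit was 1261-fold. The 6 hpf pools differed widely among themselves, and without pool 1, 2 or 3 of 6 hpf the edgeR adjusted p was 0.242, 0.278 and 0.064. Mutant pools at 8 hpf had 4486, 249 and 4.20 CPM. Wild type overlapped between the stages, with 1.90 and 1703 CPM at 6 hpf and 0 and 63.4 CPM at 4 hpf.

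**Figure D3:**
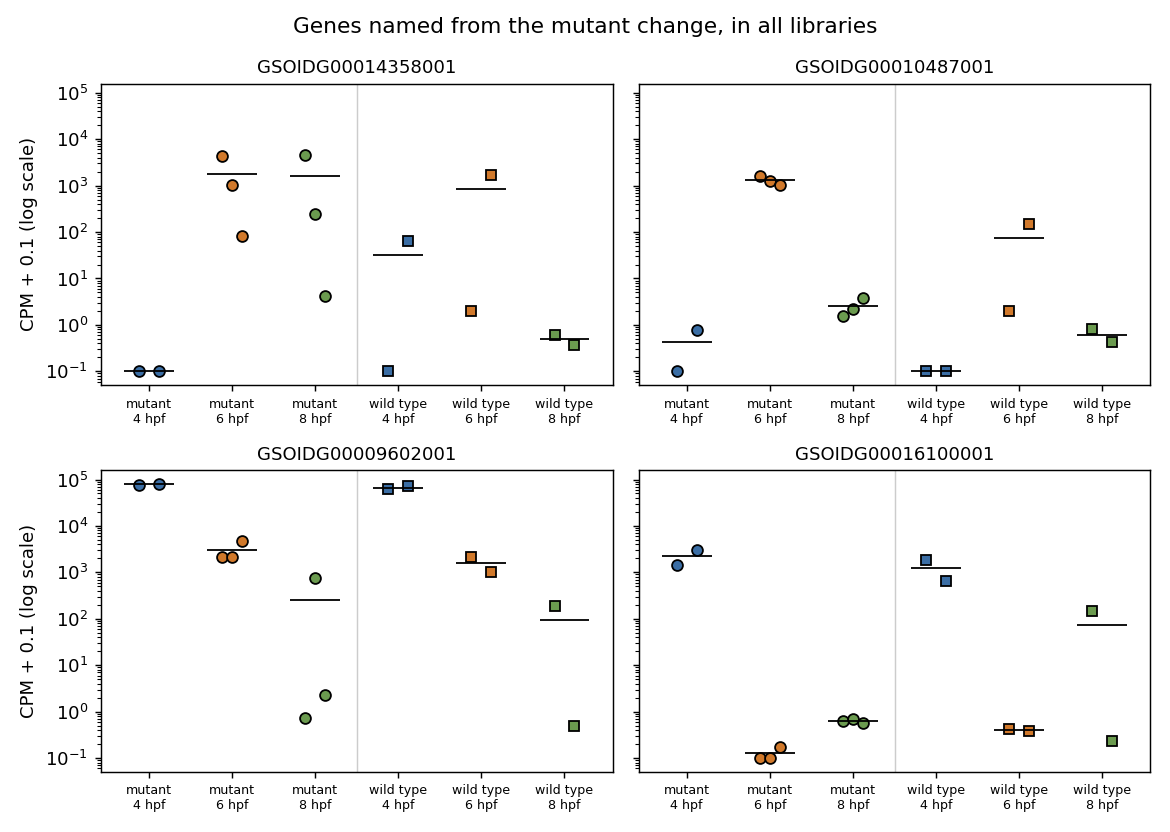
Level (CPM plus 0.1, log scale) of the 2 genes that rose (upper panels) and the 2 that fell (lower panels) between 4 and 6 hpf in mutants, in all libraries by genotype and stage, with circles for mutant and squares for wild-type pools and a line at the mean of each group. GSOIDG00009602001 drops at each stage in both genotypes, and GSOIDG00010487001 lies at 1035 to 1604 CPM in the 3 mutant pools of 6 hpf and at 147 CPM or below in all other libraries.

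The other 3 called genes comprised 1 that rose and 2 that fell, each with an edgeR adjusted p of 0.0251. The rising gene was at 1751 ± 703 CPM at 6 hpf (SD, n = 3) and 5.36 ± 1.39 CPM at 4 hpf (SD, n = 2). The falling genes were at 22.9 ± 39.5 and 0.0670 ± 0.0683 CPM at 6 hpf, against 8112 ± 3006 and 2327 ± 224 CPM at 4 hpf. All 7 called genes were tested in wild type too, and all 7 lay on the same side of the median change there. In 5 of them the 2 wild-type stages did not overlap, in the same direction as in mutants. Of all identifiers, 11.4% were higher and 20.1% lower without overlap in wild type.

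Whether the mutant change differed from the wild-type change was tested per gene over the 9 libraries of 6 and 4 hpf. No gene of 10194 passed (edgeR, smallest adjusted p = 0.142), and 1288 reached an unadjusted p under 0.05. The count was likewise 0 in limma-voom, and it was 830 in DESeq2. Differences were also planted in data simulated with the spread of the real pools. There edgeR called 0 of 50 planted genes at every size, the largest with a median absolute fitted log2 difference of 13.49. In the same data limma-voom called 17 of 50 at that size and 2 of 50 or fewer at the smaller ones. It also called 9 of 9994 unchanged genes, where edgeR called 0. When the mutant change was simulated likewise, limma-voom called 22 of 50 genes at the largest size and 14 of 7318 unchanged genes. There edgeR called 2 of 50 and 0. The 0 calls of edgeR therefore do not show that the genotypes changed alike. GSOIDG00014358001 had an adjusted p of 0.142 in edgeR (unadjusted p = 1.396e-05). With 0 counts at 4 hpf in mutants, its fitted difference of log2 changes depends on the prior count and is no measure of size. That difference was 20.45 without wild-type 6 hpf pool 2 (edgeR adjusted p = 0.0427) and 1.67 without wild-type 4 hpf pool 2 (edgeR adjusted p = 0.9998). For GSOIDG00009602001 the fitted difference was 0.29 (SE 0.70, edgeR adjusted p = 0.928), -0.12 under RLE and -1.97 under upper-quartile factors. Relative to the median difference of all tested genes it was -0.42, -0.35 under RLE and -1.10 under upper-quartile factors. In DESeq2 this relative difference was 1.06. The wild-type change alone gave 0 calls of 6782 genes (edgeR), 685 at an unadjusted p under 0.05, 210 with limma-voom and 2281 with DESeq2. Without wild-type 6 hpf pool 2 edgeR called 1152 genes.

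Across the 5588 genes tested in both genotypes, 3356 (60.1%) lay on the same side of the median change in mutants and wild type. Spearman's correlation of the log2 fold changes across these genes was 0.30, a description over genes of the same libraries. No library enters both changes. After thinning, 653 genes (3.79% of all 17212) were higher in every 6 hpf than in every 4 hpf mutant library, and 2287 (13.3%) were lower. In wild type 1961 (11.4%) were higher and 3466 (20.1%) lower. Of the 653 genes higher in mutants, 190 (29.1%) were also higher without overlap in wild type and 78 (11.9%) were lower. Of the 2287 lower in mutants, 1089 (47.6%) were also lower in wild type and 93 (4.07%) were higher. Both shares in the same direction stood above the wild-type background of 11.4% and 20.1%. Those in the opposite direction, 11.9% and 4.07%, stood below 20.1% and 11.4%. That background covers all identifiers, also those with few or no counts. Over tested genes alone the mutant shares without overlap were 7.08% higher and 23.6% lower. The matching wild-type background is not given here, so the size of the excess is uncertain.

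**Figure D4:**
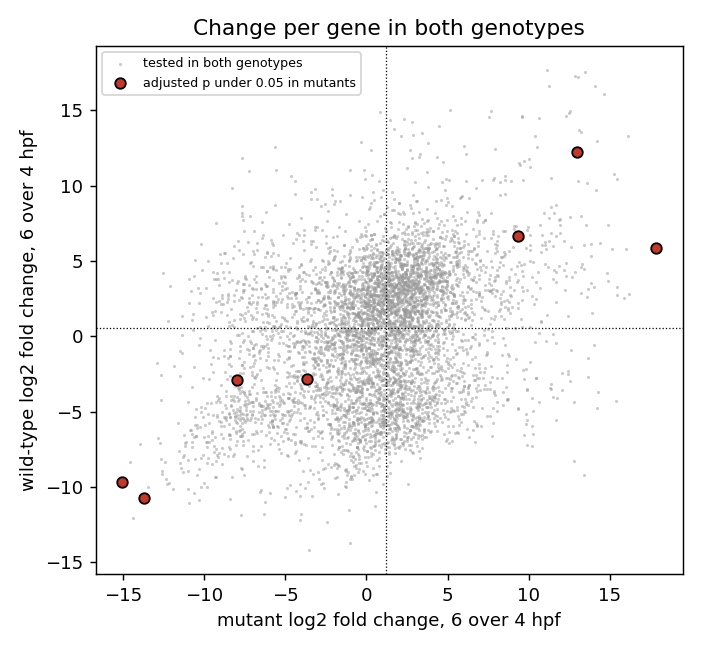
Log2 fold change, 6 over 4 hpf, in mutants (horizontal) and in wild type (vertical) for the 5588 genes tested in both, with dotted lines at the median change of each genotype and the 7 genes called in mutants in red. The cloud is broad, with a Spearman correlation of 0.30, and all 7 red points lie in the quadrants of equal direction.

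Genes that were switched between the stages in wild type were then followed in the mutants. The wild-type libraries gave 50 genes at 50 CPM or more in both 6 hpf libraries and 5 CPM or less in both 4 hpf libraries, and 662 genes with the reverse pattern. Of the 50 genes, 12 (24.0%) were higher without overlap in mutants at 6 hpf and 0 were lower. The shares were 3.79% and 13.3% of all identifiers and 7.08% and 23.6% of tested genes. In the mutant libraries of 4 hpf the 50 genes had medians of 0.254 and 0.168 CPM. Few of them could therefore be lower at 6 hpf, and the 0 was largely set by that level. On unthinned CPM the 12 became 21 (42.0%), against 10.6% of all identifiers. Without 6 hpf pool 1 the 12 became 26, for which the share of all identifiers is not given here. Of the 662 genes, 268 (40.5%) were lower without overlap and 11 (1.66%) were higher. In edgeR's test of the mutants 34 of the 50 could be tested and 0 passed, and 625 of the 662 could be tested and 2 passed, both lower. The median fitted log2 fold change of those tested, minus that of all tested genes, was 8.05 for the rising list and -1.90 for the falling list. Rising-list genes near 0 in mutants at 4 hpf could be tested only through their 6 hpf counts, which favours a high median. This holds with and without the floor used below. Over all 50 genes the median was 0.136, 24.0 and 19.0 CPM in the 6 hpf mutant pools. Fitted values of genes at 0 counts depend on the prior count and are no bound. Pooled counts below 3 were then raised to a floor of 3, with 8 genes of the rising list at 0 counts at 4 hpf. The median log2 ratio of pooled CPM, minus that of all tested genes, was then 5.99 and -1.71.

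The mutant pools of 6 hpf followed the wild-type rising list unevenly. The list's genes took 0.585%, 0.794% and 0.917% of the counts at 6 hpf and 0.0407% and 0.0317% at 4 hpf in mutants, against 3.36% and 2.04% at 6 hpf in the wild-type libraries that defined the list. Of the 50 genes, 28.0%, 44.0% and 38.0% were at 50 CPM or more in the 6 hpf mutant pools, and 2.0% and 4.0% in those of 4 hpf. The falling list held 6.49%, 7.62% and 7.15% of the counts in mutants at 6 hpf, against 13.6% and 14.1% at 4 hpf. A lower share than in wild type was given by the choice of the list, so these values are compared only between mutant stages.

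Finally, genes on in every mutant library of a stage and nearly without counts in the other were collected at equal depth (at least 100 and at most 3 thinned counts). There were 44 such genes on at 6 hpf only (0.256% of all identifiers) and 296 on at 4 hpf only (1.72%). Without 6 hpf pools 1, 2 and 3 in turn the 44 became 178, 84 and 115, and without 4 hpf pools 1 and 2 they became 100 and 65. The 296 became 376, 553 and 472 without the 6 hpf pools and 659 and 787 without the 4 hpf pools. The wild-type libraries gave independent values for these genes. Of the 296, 183 (61.8%) were also lower without overlap at 6 hpf in wild type and 6 (2.03%) were higher, against 20.1% and 11.4% of all identifiers. Of the 44, 15 (34.1%) were also higher without overlap at 6 hpf in wild type and 3 (6.82%) were lower.

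Both lists were followed into the mutant pools of 8 hpf. Of the 296 genes, 48 (16.2%) were on in at least 1 of the 3 pools, close to the 18.5% of all identifiers, and 129 were at or below 1.01 CPM in all 3. Of each mutant library's counts the list held 5.20% and 6.36% at 4 hpf and 0.00275%, 0.00343% and 0.00756% at 6 hpf. These shares were set by the choice of the genes. The list held 0.998%, 1.38% and 1.18% in the mutant pools of 8 hpf, which does not show a return. In wild type, which did not choose the list, it held 1.59% and 1.51% at 6 hpf and 1.44% and 1.01% at 8 hpf. Of the 44 genes on at 6 hpf only, 25 (56.8%) were on in at least 1 pool of 8 hpf, against 18.5% of all identifiers, with 16 on in 1 pool, 7 in 2 and 2 in all 3. Their median level was 1.28, 2.99 and 0.958 CPM in the mutant pools of 8 hpf, against 259, 252 and 195 CPM in those of 6 hpf that chose them. In wild type the same 44 genes had a median of 1.71 and 130 CPM at 6 hpf and 0.357 and 12.6 CPM at 4 hpf. Among the 44, 31 (70.5%) were on in at least 1 wild-type library of 6 hpf, 12 of them in both, and 25 (56.8%) in at least 1 library of 4 hpf, against 22.6% and 31.5% of all identifiers.

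**Figure D5:**
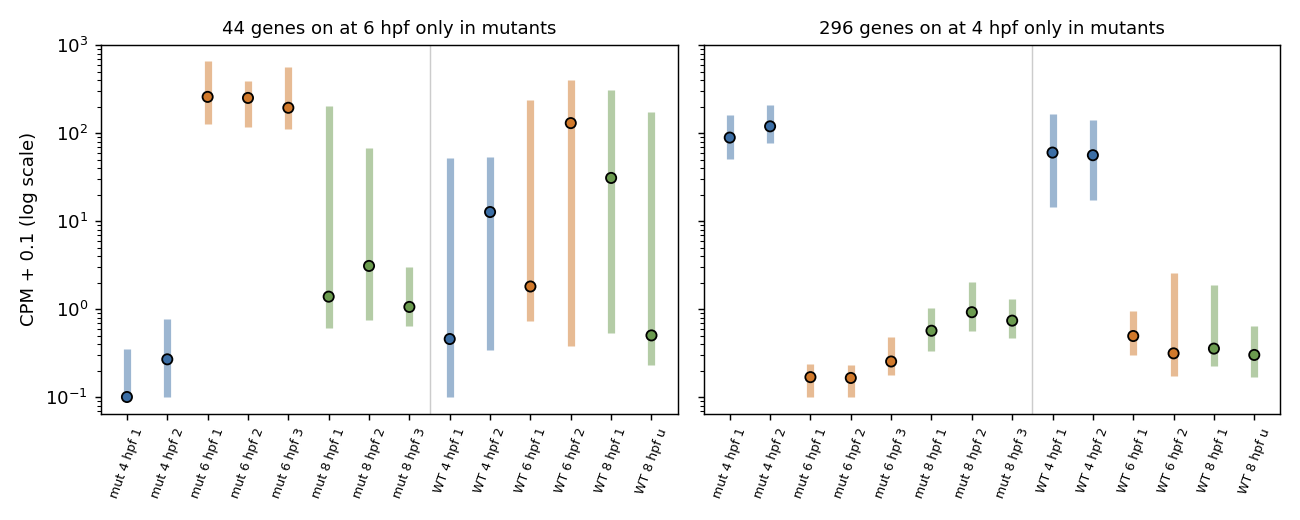
Median (points) and quartiles (bars) of the level (CPM plus 0.1, log scale) of the 44 genes on at 6 hpf only and the 296 on at 4 hpf only in mutants, in each of the 14 libraries, with mutants left and wild type right of the grey line. The 296 genes have medians of 56.1 to 120 CPM at 4 hpf in both genotypes and under 1 CPM in all later libraries, while the 44 spread over wide ranges outside the mutant libraries that chose them.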

How the data were processed

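Polyadenylated RNA was sequenced from a low-input kit, per the labels' protocols. The authors deposited estimated counts per gene, 1 table per stage and 1 column per library. The submitters' processing notes name kallisto (version 0.46.0) and DESeq2, and the sources used here do not give the index or annotation. The tables were joined by identifier and the estimated counts rounded. Genes with near-identical copies are uncertain, because kallisto divides reads among them.

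Titles gave each library's genotype and stage. A wild-type 8 hpf column whose number matches no title was kept as an unnumbered replicate. No pair of mutant libraries of a stage agreed within sampling noise (chi-square per degree of freedom of at least 160). Tests used edgeR 4.0.16 in R 4.3.3 with filterByExpr, TMM factors, and the two-sided quasi-likelihood test, adjusted by Benjamini-Hochberg across every gene in the fit. The 5 mutant, 4 wild-type and 9 combined libraries were each fitted alone. Alternatives used DESeq2 1.42.0, limma 3.58.1, other scalings, filters and depths, a block for the replicate number, and fits without single libraries. Thinning drew counts without replacement with Python 3.11.15 and numpy 2.4.6. The fitting script was tested on simulated data. Intervals and floors cover counting error only. Named genes were those with the smallest unadjusted p, at most 2 in each direction, with a mean of at least 5 CPM and no overlap between stages. The libraries, lists and tests were chosen with earlier results of these data known. Functional gene lists were not run because no identifier matched a name.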

Additional observations from a re-analysis of the deposited data

How the results depend on the processing

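The number of genes called for the mutant change, 7, became 0 under RLE factors, 17 under upper-quartile factors, 1657 in DESeq2 (16149 genes with a count, 9942 of them left without an adjusted p), 269 in limma-voom, 1 without a low-count filter, 17 at a mean of 5 CPM or more, 18 on thinned counts, 0 in a fit of all 14 libraries, and 1 to 8 when a library was left out. Where this left a stage with a single library, that lone library was assumed to vary like the other stage. The replicate block gave 4 calls in mutants, 0 in wild type and 1 for the difference of the changes, GSOIDG00014358001 (edgeR adjusted p = 0.0123). The labels do not say whether same-numbered pools belong together. Deviations of such pools correlated at -0.01 and -0.02 in mutants, which cannot decide whether they are paired. For the wild-type change, 0 calls became 13 under RLE, 2281 in DESeq2, 210 in limma-voom, and 0 to 1152 when a library was left out, the 1152 without 6 hpf pool 2. For the difference of the changes, 0 became 830 in DESeq2 and 0 to 1 when a library was left out.

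All 4 named genes kept their direction relative to the median gene in all 14 alternatives for mutants, and passed in 9 (GSOIDG00014358001), 5 (GSOIDG00010487001), 10 (GSOIDG00009602001) and 6 (GSOIDG00016100001) of them. The uncalled fitted difference of log2 changes of GSOIDG00009602001, 0.29, was -0.12 under RLE, -1.97 under upper-quartile factors and -0.13 in DESeq2. It was -0.44 at 5 CPM, -0.72 on thinned counts and -0.74 to 1.26 with a library left out. Relative to the median difference of all tested genes it was -0.42, -0.35 under RLE, -1.10 under upper-quartile factors and 1.06 in DESeq2. The fitted difference of GSOIDG00010487001, 0.57, was -0.60 to 5.92 with a library left out, and that of GSOIDG00014358001 was 1.67 to 20.45. The cause was not tested.

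The 44 genes on at 6 hpf only became 16 with 0 counts as off, 67 on unthinned counts and 65 to 178 with a library left out. The 296 on at 4 hpf only became 153 at 200 counts, 110 with 0 counts as off, 171 unthinned and 376 to 787 with a library left out. Genes with a count differed by -1515 (6 minus 4 hpf) at equal depth and by 2826 unthinned, so thinning turns this difference. The share of the top 10 genes differed by -10.8 percentage points (6 minus 4 hpf), and by -11.7 to -9.96 with a library left out. The 12 rising-list genes without overlap became 21 on CPM, an alternative chosen after seeing the data. On CPM 10.6% of all identifiers were higher without overlap. With a library left out the 12 became 12 to 26, for which the share of all identifiers is not given here. The list's median of 8.05 over its tested genes, which the filter favours, was 5.98 in DESeq2 and 5.62 to 7.51 with a library left out. The 268 of the falling list became 410 of 1188 at 20 and 2 CPM and 169 of 364 at 100 and 10 CPM. The overlap of the single 4 hpf pair, 44.3%, was 46.2% at 20 counts and 43.9% unthinned, and a single pair gives no spread to set these against. The overlaps within 6 hpf and between stages moved by less than their SD over pairs under both alternatives.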

Other observations

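A run of 43 neighbouring identifiers, chosen in earlier work on these data because its counts were low in mutants, was also read at both stages. Its summed level was 720, 140 and 2.45 CPM in the mutant pools of 6 hpf and 15.5 and 65.9 CPM in those of 4 hpf, so that the stages overlapped. Wild-type libraries stood at 2999 and 2676 CPM at 6 hpf and 8352 and 8414 CPM at 4 hpf.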
